A study of Mus musculus with 14 samples.

Results

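The 42 genes described here encode proteins that license, open and copy DNA in S phase, supply its nucleotides, or, as E2f1, control that program. They were taken by gene symbol from their known roles, with no measured value in the rule, and all 42 were found among the 24016 transcripts of the table. RNA was measured in C2C12 cells, an established mouse myoblast line that leaves the cell cycle and fuses into myotubes when growth medium is replaced by differentiation medium with low horse serum. Cells had been transfected in growth medium with control siRNA (siCtrl) or with a pool of siRNAs against Klf5 (siKlf5), and poly(A) RNA was taken on days 0, 1, 2 and 3 of differentiation. Each siRNA and day has 1 library, 8 together, so no condition has a replicate and all 8 come from a single cell line. Both groups received siRNA, so no library is of untransfected cells, and knockdown leaves some Klf5 transcript.

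DNA replication is prepared when the origin recognition complex, Cdc6 and Cdt1 load the MCM helicase onto origins, and it starts when Cdc45 and the GINS complex activate that helicase. Polymerase alpha with primase lays down primers, polymerases delta and epsilon extend them with the Pcna clamp, which the Rfc complex loads, and Fen1 and Lig1 join the lagging strand fragments. Many of these genes are transcribed under the control of E2F factors, which the Rb family of proteins holds in check once a cell has left the cycle. Muscle differentiation is known for this exit, since myotube nuclei do not replicate.

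The values are FPKM as the authors scaled them, scaled to a larger total than is customary and given per length, so levels of different genes can be set beside each other. The reads counted in the listed transcripts, which are not all reads of a library, were recovered from the values. They numbered 12178833, 7850497, 20301506 and 12366627 in siCtrl cells on days 0, 1, 2 and 3, and 11136799, 8119452, 11808641 and 10864084 in siKlf5 cells. All 42 members had a mean of at least 1 and counted as expressed, as did 14312 transcripts in all, and the lowest mean of a member was 17.4 (Mcm8). The siCtrl library of day 2 was the deepest and stood apart in abundant housekeeping transcripts. The 6 reference genes were higher in siKlf5 cells on that day by a median log2 ratio of 0.39, against 0.03, -0.09 and 0.02 on days 0, 1 and 3. Actb, for example, was at 4519, 5476, 2705 and 3352 in siCtrl cells and at 4724, 5119, 3720.3 and 3436 in siKlf5 cells on days 0 to 3. At most 3 reads were kept per position, a limit that abundant transcripts reach sooner in a deep library, and its part in these values was not tested.

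The labels were checked first. Klf5 was at 224, 381, 614 and 933 in siCtrl cells and at 35.1, 159.6, 192 and 211 in siKlf5 cells on days 0 to 3, a log2 ratio of siKlf5 to siCtrl of -2.67 (interval -3.47 to -1.95) on day 0 and -2.14 (interval -2.45 to -1.84) on day 3. These are 95% intervals, exact binomial (Clopper-Pearson) limits taken after dividing reads by 6, and they reflect counting error alone. Of 11 muscle identity markers 9 were higher on day 3 than on day 0 by the limma test used for the replication genes. Myog, the myogenin gene, was at 479, 1896, 2061 and 2293 in siCtrl cells and at 328, 1517, 1739.6 and 1386 in siKlf5 cells, and Ckm, muscle creatine kinase, rose from 21.0 to 1094 in siCtrl cells. Of the markers of other cell types, 2 of 5 adipocyte, 2 of 5 osteoblast and 2 of 4 blood cell genes were expressed. The adipocyte genes Plin1 and Adipoq were listed at 0 in 8 and 7 of the libraries, the osteoblast gene Ibsp and the globin gene Hbb-b1 at 0 in all 8, and the blood cell gene Ptprc was never above 0.707. Runx2, the most abundant osteoblast marker, was at 77.7, 50.1, 66.9 and 50.5 in siCtrl cells and at 76.2, 69.2, 61.6 and 64.8 in siKlf5 cells on days 0 to 3. Bglap, the other osteoblast gene expressed, was at 2.52 and 10.3 in siCtrl cells on days 2 and 3 and listed at 0 in the 6 other libraries. The blood cell genes expressed were Cd68 and Lyz2, the most abundant of the list, which summed to 26.1, 23.1, 24.4 and 74.6 in siCtrl cells and 52.3, 38.3, 41.6 and 41.8 in siKlf5 cells. This sum was higher in siKlf5 cells on days 0, 1 and 2 and lower on day 3, and its part in the replication gene ratios was not tested. The adipocyte markers expressed were Pparg and Cebpa, which summed to 173, 73.6, 70.7 and 77.0 in siCtrl cells and 144, 58.2, 73.0 and 69.0 in siKlf5 cells. Pparg, the most abundant of them, was at 156, 62.9, 44.0 and 41.99 in siCtrl cells and at 133, 33.7, 37.9 and 33.6 in siKlf5 cells, and Cebpa at 16.6, 10.7, 26.7 and 35.0 in siCtrl cells and at 10.6, 24.5, 35.2 and 35.4 in siKlf5 cells. From day 0 to day 3 Pparg went down and Cebpa up in both arms, and the part of such cells in the replication gene values was not tested.

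Replication genes fell within 1 day of differentiation and stayed low in both siRNA arms. In each of the 42 members both day 0 libraries lay above all 6 later libraries, as they did in 22.6% of expressed transcripts. The summed value of the 42 members was 11679.8, 4984, 6218 and 4571 in siCtrl cells on days 0 to 3, and 13287, 6496, 6915 and 5049.7 in siKlf5 cells. The members were compared between days by limma on log2(value + 0.1) with siRNA and day as terms, fitted over all expressed transcripts with Benjamini-Hochberg adjustment and a threshold of 0.05. The libraries of the other siRNA on the same days take the place of replicates, so what the test measures is whether a change with time was alike in both arms. 40 of the 42 passed as lower on day 1 than on day 0 (9.93% of expressed transcripts did), 39 on day 2 (11.6%) and 41 on day 3 (17.6%), and none passed as higher, since all 42 coefficients were below 0 on each day. The median fitted change of the members came to -1.25, -0.95 and -1.49 on days 1, 2 and 3, where all expressed transcripts had medians of -0.09, -0.02 and -0.09. Another scaling of the libraries moved the median of all transcripts on day 1 to 0.01 (median ratio) or 0.04 (upper quartile). Of all transcripts that passed on day 1, 59.3% were lower, and 44.8% and 40.9% under those scalings, and on day 3 57.9% were lower, and 45.6% and 46.6%, while the members counted as lower were 40 on either day. Mcm8 passed on no day, Gins4 passed only on day 3, and Rfc4 missed the threshold only on day 2. In bulk RNA, fewer cells in S phase and less RNA per cell cannot be told apart.

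**Figure D1:**
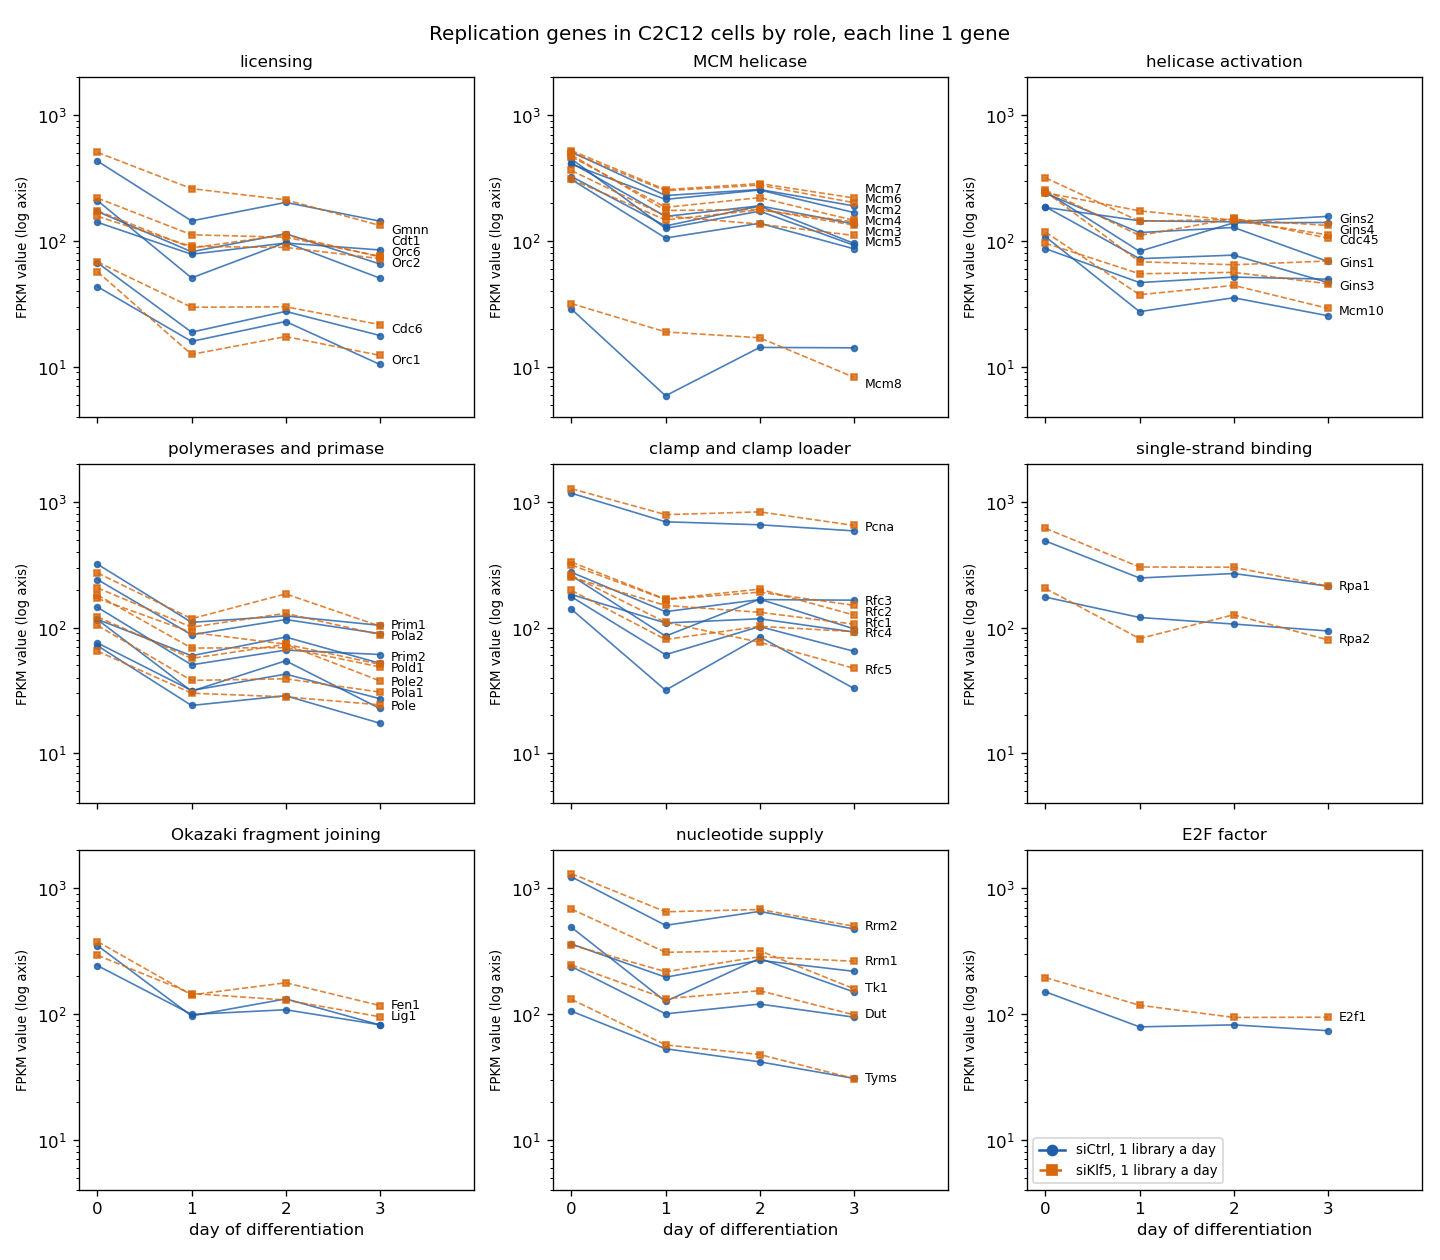
FPKM value (log axis) of each of the 42 replication genes against day of differentiation, in 9 panels by role, with siCtrl as solid lines and circles and siKlf5 as dashed lines and squares, 1 library per point. Each gene stood highest on day 0 in both siRNA arms, and gene names stand beside the day 3 end of the lines.

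The fall did not proceed evenly from day to day. In siCtrl cells 38 of 42 members stood higher on day 2 than on day 1, by a median of 0.38 on the log2 scale (62.3% of expressed transcripts did), and 40 of 42 stood lower on day 3 than on day 2 (57.8%). Over all expressed transcripts the siCtrl library of day 2 was above that of day 1 by a median of 0.17. In siKlf5 cells 27 of 42 were higher on day 2 than on day 1, by a median of 0.05, where 52.4% of expressed transcripts were, by a median of 0.03. On day 3, 40 of 42 were lower than on day 2 in siKlf5 cells, against 54.8% of expressed transcripts. In the additive fit, with these steps added after the values were seen, no member passed as higher on day 2 than on day 1 (1.01% of expressed transcripts did), and 9 had an unadjusted p under 0.05 (12.7%). None passed as lower on day 3 than on day 2 (0.0279%), and 26 had an unadjusted p under 0.05 (5.65%). Leaving out both libraries of day 2 left 26 members lower on day 1 and 40 lower on day 3, against 552 and 1828 of the 14312 expressed transcripts. Fitting without limma's trend of spread with level left 17, 22 and 37 lower on days 1, 2 and 3, against 308, 512 and 1366. With no filter on low values 14, 16 and 31 were lower on these days, against 371, 551 and 1256 of all 24016 transcripts. The main fit gave 1421, 1662 and 2516 of the 14312.

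The promoters of the members are shown because the genes moved together. RefSeq windows of 250 bases before to 50 after a transcription start (build GRCm38.p6, not the mm9 of the expression table) were held for 34 of the 42 members, and not for Gins1, Gins2, Gins4, Gmnn, Mcm4, Pole, Prim2 and Rfc2. An E2F-like motif, taken as TTTGGCGC, TTTCGCGC, TTTCCCGC, TTTGGCGG or TTTGGCGA on either strand, was found in 16 of the 34 (47.1%), against 5.26% of the 10312 expressed genes with a window and 2.95% of all 27025 genes with one. The CCAAT box was found in 21 of 34 (61.8%, against 42.9% of expressed genes), the CHR element TTTGAA in 4 (11.8%, against 14.2%), the GC box CCGCCC in 25 (73.5%, against 66.8%) and CACCC, a core that Krüppel-like factors can bind, in 19 (55.9%, against 66.8%), each on either strand. These are matches of letters and no evidence of binding. The 160 bases before the start follow for the 3 members in which a match lay there and the transcription start was where the annotated gene begins. They follow as well for Pcna and Rrm1, the 2 members that stayed above 50% of their day 0 value in both arms. Capitals mark the E2F-like matches, and where matches overlap they run together.
Mcm6, chr1:128359706-128359865, minus strand: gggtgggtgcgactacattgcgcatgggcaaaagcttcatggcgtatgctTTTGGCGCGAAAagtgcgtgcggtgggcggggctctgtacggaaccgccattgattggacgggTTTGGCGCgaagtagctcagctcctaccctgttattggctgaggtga
Rfc3, chr5:151651209-151651368, minus strand: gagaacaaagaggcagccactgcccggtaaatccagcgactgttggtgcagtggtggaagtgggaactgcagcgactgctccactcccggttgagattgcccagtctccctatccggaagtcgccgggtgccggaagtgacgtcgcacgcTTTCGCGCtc
Gins3, chr8:95633399-95633558, plus strand: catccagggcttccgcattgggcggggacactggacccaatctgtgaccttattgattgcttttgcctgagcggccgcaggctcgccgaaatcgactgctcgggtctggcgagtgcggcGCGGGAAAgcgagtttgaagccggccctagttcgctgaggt
Pcna, chr2:132253181-132253340, minus strand: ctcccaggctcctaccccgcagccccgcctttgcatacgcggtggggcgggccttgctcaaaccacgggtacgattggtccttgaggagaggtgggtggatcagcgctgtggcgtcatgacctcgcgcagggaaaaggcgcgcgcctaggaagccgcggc
Rrm1, chr7:102441535-102441694, plus strand: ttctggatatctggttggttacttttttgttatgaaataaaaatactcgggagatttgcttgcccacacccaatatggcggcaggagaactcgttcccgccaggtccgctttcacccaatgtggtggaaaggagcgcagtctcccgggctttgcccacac
Mcm6 held 3 matches, of which the first 2 overlap, and Rfc3 and Gins3 held 1 each. The stretches of Pcna and Rrm1 held none, which says only that these letters are not in them.

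All 6 licensing genes passed as lower on days 1, 2 and 3, with a median fitted change of -1.77 on day 3. Cdc6, which helps to load the helicase, was at 67.1, 18.8, 27.5 and 17.7 in siCtrl cells and at 68.1, 29.7, 29.9 and 21.6 in siKlf5 cells on days 0 to 3. Cdt1, its partner in loading, was at 209, 50.8, 97.3 and 50.6 in siCtrl cells and at 219, 112, 107 and 75.6 in siKlf5 cells. On day 1 Cdt1 stood at 24.3% of day 0 in siCtrl cells and at 51.0% in siKlf5 cells, and the siKlf5 library held more of it on each day. Orc1, the largest subunit of the origin recognition complex, was at 43.3, 15.9, 22.9 and 10.4 in siCtrl cells and at 57.0, 12.5, 17.4 and 12.3 in siKlf5 cells. Its change from day 0 to day 3 in the additive fit was the largest of the 42 (-2.12 ± 0.38 SE, adjusted p = 0.0044, on the log2 scale as are all fitted changes). Gmnn, geminin, which binds Cdt1 and blocks a repeat of licensing, was at 431, 144, 202 and 144 in siCtrl cells and at 505, 260.3, 212 and 133 in siKlf5 cells. Its fitted change on day 3 was -1.76, that of Cdt1 -1.79. Orc2, another subunit of the origin recognition complex, changed least of the group and was at 141, 78.3, 96.2 and 84.7 in siCtrl cells and at 157, 90.4, 88.8 and 72.3 in siKlf5 cells, and Orc6 lay between these extremes.

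The genes of the MCM helicase ring fell together. Their fitted changes on day 3 ran from -2.07 (Mcm3) to -1.30 (Mcm6), and differences between subunits were not tested. The helicase is a ring of Mcm2 to Mcm7, and all 6 passed on each of the 3 days. Mcm2 was at 417, 157, 190.1 and 136 in siCtrl cells and at 468, 185, 221 and 146 in siKlf5 cells on days 0 to 3. Mcm3 was at 448, 126, 172 and 92.4 in siCtrl cells and at 483, 174, 178 and 134 in siKlf5 cells and had the largest fall of the 6 (-2.07 ± 0.15 SE, adjusted p = 6.9e-05 on day 3). Mcm4 was at 325, 131, 189 and 95.6 in siCtrl cells and at 309, 147, 176 and 142 in siKlf5 cells. In Mcm2 the arms lay close together on each day, while in Mcm3 and Mcm4 the siKlf5 library of day 3 lay above the siCtrl library. Mcm5 was at 308, 105, 138 and 86.6 in siCtrl cells and at 363, 158, 136 and 111 in siKlf5 cells. Mcm6 (NM_008567, chromosome 1, 130228168 to 130256233, minus strand of mm9) was at 407, 214, 254 and 168 in siCtrl cells and at 502, 251, 277 and 201 in siKlf5 cells, and Mcm7 was at 509, 229, 256 and 189.7 in siCtrl cells and at 523, 255, 286 and 219 in siKlf5 cells. Mcm6 had the smallest fall of the ring (-1.30 ± 0.10 SE, adjusted p = 0.00011), and on day 3 it held 41.3% of its day 0 value in siCtrl cells where Mcm3 held 20.6%. Mcm8, a related helicase of DNA repair and not part of the ring, was the least abundant member at 28.7, 5.88, 14.2 and 14.1 in siCtrl cells and at 31.8, 18.9, 17.0 and 8.25 in siKlf5 cells. It did not pass (-1.47 ± 0.58 SE, adjusted p = 0.095), and its siCtrl value of day 1 rested on 26 reads.

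Helicase activation held both strongly and weakly reduced genes. 5 of the 6 passed on days 1 and 2 and all 6 on day 3, with a median fitted change of -1.29. Cdc45, which rides with the active helicase, was at 247, 82.6, 139 and 140.0 in siCtrl cells and at 253, 110.4, 151 and 105 in siKlf5 cells on days 0 to 3. In siCtrl cells it stood at 33.5% of day 0 on day 1 and at 56.8% on day 3. The 4 GINS subunits, which form 1 complex, had unlike fitted changes, and the difference between them was not tested. Gins2 (NM_178856, chromosome 8, 123105166 to 123112975, minus strand) was at 239, 116, 128 and 68.6 in siCtrl cells and at 317, 143, 148 and 133 in siKlf5 cells. Gins4 (NM_024240, chromosome 8, 24337082 to 24348140, minus strand) was at 185, 145, 142 and 157 in siCtrl cells and at 242, 173, 146 and 112 in siKlf5 cells, and its siCtrl libraries moved least of all members since day 0 (-0.24 on day 3). In siKlf5 cells Gins4 was at 46.3% of day 0 on day 3. Gins3 (NM_030198, chromosome 8, 98157459 to 98168959, plus strand) lay near Gins4 and Gins1 and Gins2 further down, with fitted changes on day 3 of -0.94, -0.67, -1.91 and -1.53 in that order. Mcm10, which joins the helicase as it is activated, fell as well (-2.05 ± 0.22 SE, adjusted p = 0.00046).

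All 7 polymerase and primase genes passed on each day, with a median fitted change of -1.57 on day 3. Pole, the catalytic subunit of leading strand polymerase epsilon, was at 71.8, 24.0, 28.7 and 17.4 in siCtrl cells and at 65.0, 30.1, 28.1 and 24.3 in siKlf5 cells on days 0 to 3. Pole2 (NM_011133, chromosome 12, 70302766 to 70329177, minus strand), its second subunit, was at 116, 31.2, 54.4 and 22.7 in siCtrl cells and at 122, 56.9, 73.4 and 37.7 in siKlf5 cells, and had the largest change from day 0 to day 3 in siCtrl cells (-2.34). Both genes were lower in the siCtrl than in the siKlf5 library on days 1 and 3, by intervals that include 0. The polymerase alpha subunits Pola1 and Pola2, the primase subunits Prim1 and Prim2 and the delta subunit Pold1 had fitted changes on day 3 between -1.61 (Pola1) and -1.33 (Pola2).

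All 6 genes of the clamp and its loader passed on days 1 and 3 and 5 of them on day 2, and the median fitted change on day 3 was -1.17. Pcna (NM_011045, chromosome 2, 132075022 to 132078916, minus strand), the clamp that holds polymerases on DNA, was the most abundant member on day 3 in both arms, at 1168, 693, 656 and 586 in siCtrl cells and at 1268, 789, 830.4 and 648 in siKlf5 cells on days 0 to 3. It still fell (-0.98 ± 0.10 SE, adjusted p = 0.00039), but kept 50.2% of its day 0 value in siCtrl cells and 51.1% in siKlf5 cells on day 3. Among the 5 loader subunits Rfc4 (NM_145480, chromosome 16, 23114021 to 23127803, minus strand) was at 139.9, 31.8, 84.4 and 32.8 in siCtrl cells and at 198, 80.4, 102 and 92.8 in siKlf5 cells. Rfc5 (NM_028128, chromosome 5, 117829154 to 117839032, minus strand) was at 176, 60.9, 102 and 64.8 in siCtrl cells and at 259, 110.0, 76.4 and 47.5 in siKlf5 cells. Rfc4 was lower in siCtrl cells on each day, and Rfc5 was lower in siCtrl cells on days 0 and 1 and lower in siKlf5 cells on days 2 and 3. In the GENCODE vM1 annotation both share exon bases with a gene on the opposite strand, Eif4a2 and Wsb2 respectively. Of the transcripts counted here, Eif4a2 ended at 23114205, inside Rfc4. Since both strands were counted, the reads of these 2 genes cannot be told apart there. The counted Wsb2 transcript ended at 117828598, before that of Rfc5 began, so no such overlap is shown for Rfc5. Eif4a2 was at 675, 592, 819 and 1034 in siCtrl cells and at 555, 689, 862 and 914 in siKlf5 cells, and Wsb2 at 501, 603, 527 and 600.0 in siCtrl cells and at 578, 528, 532 and 518 in siKlf5 cells. Eif4a2 stood higher on day 3 than on day 0 in both arms, where Rfc4 stood lower.

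Genes for single-strand binding and for joining Okazaki fragments passed on each day. Rpa1 and Rpa2, subunits of the complex that coats exposed strands, had fitted changes on day 3 of -1.36 and -1.13. Fen1, the nuclease that trims the flaps between fragments, was at 351, 96.8, 132 and 82.2 in siCtrl cells and at 378, 142, 178 and 117 in siKlf5 cells on days 0 to 3 (-1.89 ± 0.14 SE, adjusted p = 8.0e-05). Lig1, the ligase that seals them, had a fitted change of -1.59. In each of the 4 genes the day 0 libraries lay above all later ones.

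Nucleotide supply held the most abundant transcript of day 0 and the smallest fitted change. All 5 genes passed on each day. Rrm2, the small subunit of ribonucleotide reductase, was at 1235, 508, 656 and 476 in siCtrl cells and at 1309, 651, 679 and 501 in siKlf5 cells on days 0 to 3. Rrm1 (NM_009103, chromosome 7, 109590209 to 109618285, plus strand), the large subunit of that enzyme, was at 361, 197, 268 and 219 in siCtrl cells and at 355, 218, 286 and 263 in siKlf5 cells. Rrm1 had the smallest fitted change of the 42 on day 3 (-0.58 ± 0.11 SE, adjusted p = 0.0068), and Rrm2 a larger one (-1.38 ± 0.11 SE, adjusted p = 0.00011). In both arms Rrm2 stood lower on day 3, relative to day 0, than Rrm1 did, and the difference between the subunits was not tested. Tyms, thymidylate synthase, was at 106, 53.1, 41.8 and 30.9 in siCtrl cells and at 131, 57.0, 47.8 and 30.8 in siKlf5 cells. It went down on each day in both arms, and held 29.2% and 23.4% of day 0 on day 3. Tk1, thymidine kinase of S phase cells, was at 490.3, 126, 277 and 150.1 in siCtrl cells and at 685, 310.3, 319 and 159 in siKlf5 cells, and on day 1 the siCtrl library held less than the siKlf5 library by a log2 ratio of 1.30 (interval 0.73 to 1.90). Dut, which removes dUTP, had a fitted change on day 3 of -1.33.

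E2f1, the transcription factor of the list, was at 151, 79.3, 82.2 and 73.9 in siCtrl cells and at 195, 118, 94.2 and 94.6 in siKlf5 cells on days 0 to 3. It fell (-1.04 ± 0.15 SE, adjusted p = 0.0017) by less than the median of the 42, and stood higher in siKlf5 than in siCtrl cells on each day.

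**Figure D2:**
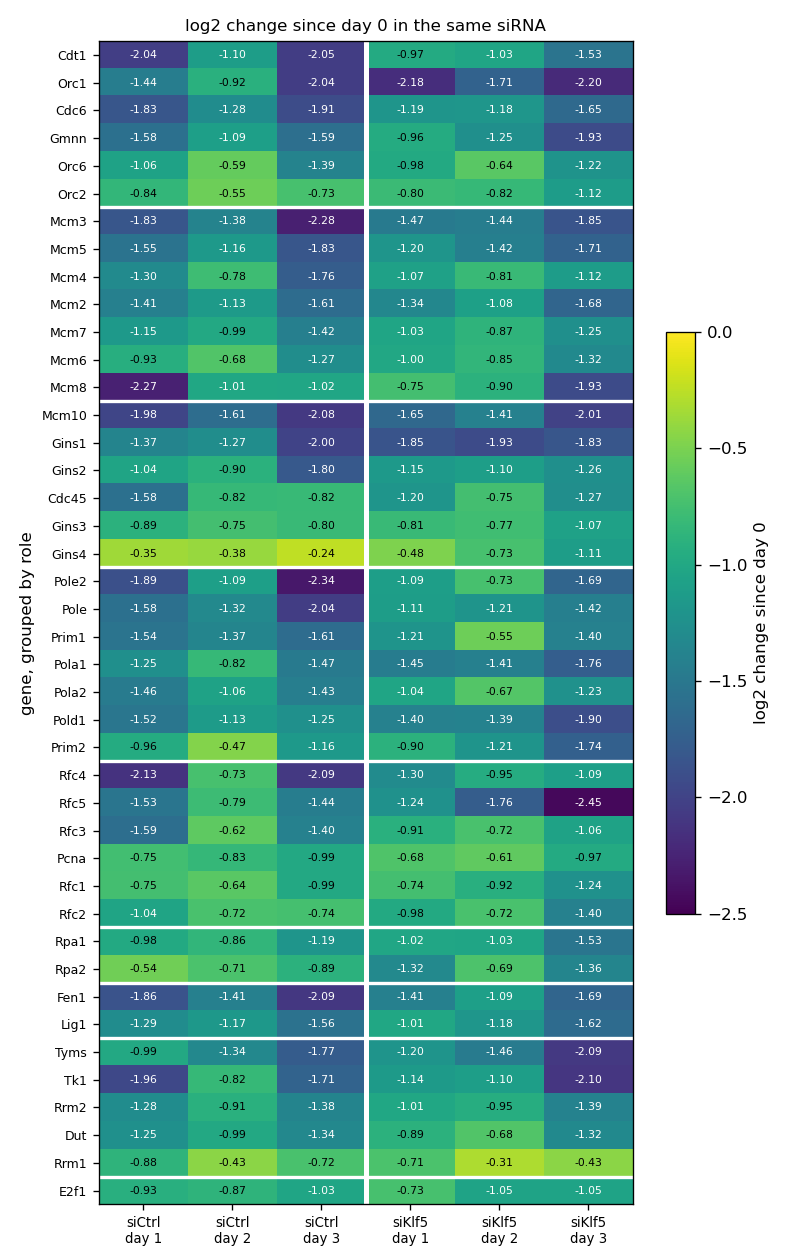
log2 change of each of the 42 genes since day 0 of the same siRNA, on days 1, 2 and 3 in siCtrl (left) and siKlf5 (right), with the value printed in each cell and genes grouped by role and ordered by the change in siCtrl cells on day 3. All 252 changes are below 0, from -2.45 (Rfc5, siKlf5, day 3) to -0.24 (Gins4, siCtrl, day 3).

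The timing of loss was read as the first day on which a member stood at or below 50% of its own day 0 value. In siCtrl cells 30 members had done so on day 1, 1 on day 2 (Tyms), 4 on day 3 (E2f1, Mcm6, Prim2 and Rpa1) and 7 on no day (Gins3, Gins4, Orc2, Pcna, Rfc1, Rpa2 and Rrm1). In siKlf5 cells 27 had done so on day 1, 4 on day 2 (Cdt1, E2f1, Gmnn and Prim2), 9 on day 3 (Dut, Gins3, Gins4, Mcm8, Orc2, Orc6, Rfc1, Rfc2 and Rfc3) and 2 on no day (Pcna and Rrm1). Under median-ratio or upper-quartile scaling 7 or 8 members reached it on no day in siKlf5 cells, and the counts of day 1 were 27 or 26 in siCtrl cells and 20 or 18 in siKlf5 cells. 23 members reached 50% on day 1 in both arms. Several stood close to the line, for example Rfc2 at 48.6% on day 1 in siCtrl cells and 50.6% in siKlf5 cells, Mcm6 at 52.5% and 50.0%, and Tyms at 50.2% and 43.4%. Under the deposited scaling, 12.5%, 8.57% and 12.7% of expressed transcripts were at least 2-fold below day 0 on days 1, 2 and 3 in siCtrl cells. In siKlf5 cells 10.3%, 9.92% and 12.4% were. No share was taken under the other scalings, for both arms together or for reaching 50% on no day. The median change of the 42 members since day 0 was -1.34, -0.91 and -1.43 in siCtrl cells and -1.05, -0.99 and -1.41 in siKlf5 cells on the log2 scale, with medians over all expressed transcripts between -0.09 and 0.00. Whether the difference between the arms changed with day was tested by a term for siRNA by day, and no member passed (0.0% of expressed transcripts did). 2 members, Gins4 and Rfc5, had an unadjusted p under 0.05 (2.65%), both with siKlf5 falling further.

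Replication genes stood slightly higher in siKlf5 than in siCtrl cells on each day by their median, and no member passed the test. The median log2 ratio of siKlf5 to siCtrl over the 42 members was 0.20, 0.34, 0.15 and 0.18 on days 0, 1, 2 and 3, and 0.00, 0.03, -0.03 and 0.00 over all expressed transcripts. 37, 39, 32 and 28 of the 42 were above 0 on these days, as were 50.1%, 53.1%, 44.5% and 48.5% of expressed transcripts, and upper-quartile scaling made the last count 32. 20 members were above 0 on all 4 days (9.05% of expressed transcripts were). In the additive fit 40 of 42 coefficients for siKlf5 were above 0 (52.1% of expressed transcripts), with a median of 0.20 against 0.01 over all expressed transcripts. None passed as higher (0.00699%) or lower (0.0559%), and 16 had an unadjusted p under 0.05 in the higher direction (3.93%). That count was 10 without limma's trend, 8 without day 1 and 0 without day as a term. The share over all expressed transcripts was not taken for these 3 fits. The member with the largest coefficient was Rfc4 (0.90 ± 0.22 SE, adjusted p = 0.27), which was higher in siKlf5 cells on 4 of 4 days. Fen1 (0.40 ± 0.10 SE, adjusted p = 0.3), Tk1 (0.52 ± 0.18 SE, adjusted p = 0.44) and Rfc3 (0.51 ± 0.14 SE, adjusted p = 0.32) were higher on 4 of 4 days as well. Fen1 and Tk1 share exon bases with opposite-strand genes in GENCODE vM1, Tk1 with Afmid, and the part of such reads was not tested.

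**Figure D3:**
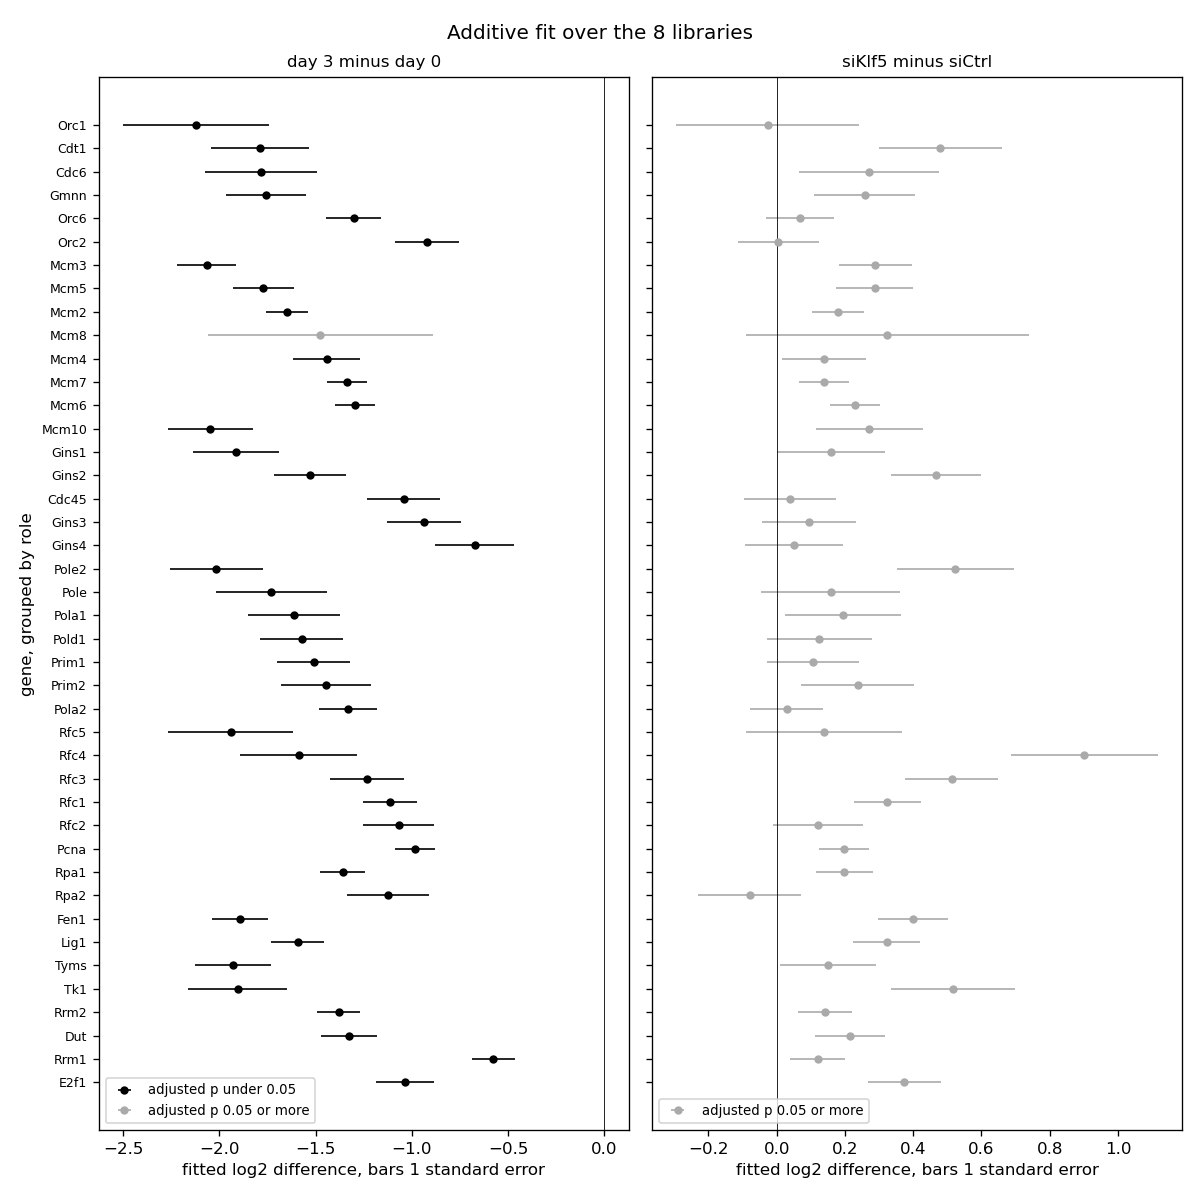
Fitted log2 differences of the 42 genes from the additive limma fit over the 8 libraries, day 3 minus day 0 (left) and siKlf5 minus siCtrl (right), points with bars of 1 standard error, black where the adjusted p is under 0.05 and grey otherwise. 41 of 42 genes are black on the left and none on the right, where 40 of 42 points lie above 0.

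No member passed 1.5-fold in either direction on days 0 and 2, when 9.22% and 7.69% of expressed transcripts were higher and 11.1% and 13.0% lower by more than that. On day 1, 10 members were higher by more than 1.5-fold (16.4% of expressed transcripts) and none lower (11.0%). The largest ratios of that day were those of Mcm8 at 1.67 (interval 0.07 to 3.65), Rfc4 at 1.34 (interval 0.12 to 2.71), Tk1 at 1.30 (interval 0.73 to 1.90) and Cdt1 at 1.14 (interval 0.42 to 1.90). On day 3, 4 members were higher (10.7%) and 1 lower (12.5%). The 4 became 7 under upper-quartile scaling, and 2 among the 30 members that share no exon bases with an opposite-strand gene in GENCODE vM1. Rfc4 had the highest ratio of day 3 at 1.5 (interval 0.55 to 2.53), followed by Gins2 at 0.95 (interval 0.19 to 1.74) and Pole2 at 0.73 (interval -0.37 to 1.87), and the other was Rfc3 at 0.62 (interval 0.01 to 1.25). The lowest were Mcm8 at -0.77 (interval -2.16 to 0.50), Gins4 at -0.49 (interval -1.06 to 0.07) and Rfc5 at -0.45 (interval -1.25 to 0.32). Mcm8 thus had the highest ratio of day 1 and the lowest of day 3, on few reads. The interval lay above 0 for 11, 13, 3 and 6 of the 42 members on days 0, 1, 2 and 3, as it did for 4.42%, 7.15%, 7.2% and 6.5% of expressed transcripts. It lay below 0 for no member on any day, and for 5.14%, 5.53%, 10.3% and 7.16% of expressed transcripts. Gins2 shares exon bases with Gse1 on the opposite strand, which had a ratio of 0.59 (interval 0.29 to 0.89) on day 3. The part of such reads in the ratio of Gins2 was not tested, nor that of Afmid, opposite Tk1, in the ratio of Tk1.

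**Figure D4:**
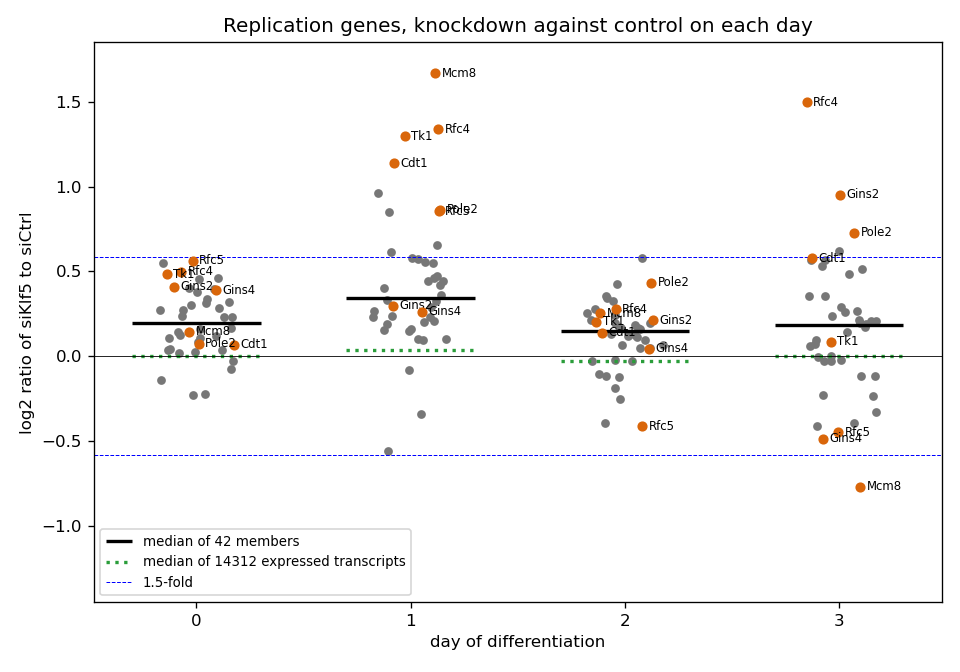
log2 ratio of siKlf5 to siCtrl for each of the 42 genes (points) on each day, with the median of the members (black bar), the median of 14312 expressed transcripts (dotted green bar) and lines at 1.5-fold, and 8 genes named in the text in orange. The member median lies above that of all expressed transcripts on each day, and all points of days 0 and 2 lie between the 1.5-fold lines.

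Other genes of DNA copying, listed by role, followed the members to different extents. Of 30 other replication proteins 21 passed as lower on day 3 and none as higher, with a median fitted change of -1.22. Recql4, a helicase needed for origin firing, was at 87.4, 12.6, 27.9 and 16.0 in siCtrl cells and at 97.1, 38.5, 24.1 and 21.3 in siKlf5 cells on days 0 to 3. Wdhd1, which tethers polymerase alpha to the helicase, was at 123, 45.3, 52.5 and 23.1 in siCtrl cells and at 100.3, 52.6, 49.7 and 27.3 in siKlf5 cells, and the nuclease Dna2 at 62.0, 11.0, 19.5 and 12.1 in siCtrl cells and at 86.6, 31.3, 23.6 and 19.9 in siKlf5 cells. Each was more than 3-fold lower on day 3 than on day 0 in both arms, as was Clspn, a checkpoint adaptor (-2.00 ± 0.22 SE, adjusted p = 0.00045). Of 8 kinases and cyclins of S phase 7 passed as lower on day 3. Ccne1, cyclin E1, had a fitted change of -2.23 ± 0.17 SE, adjusted p = 7.6e-05, and Dbf4, the activator of the Cdc7 kinase that fires origins, one of -2.16 ± 0.14 SE, adjusted p = 4.4e-05. Cdc7 itself (-1.76 ± 0.28 SE, adjusted p = 0.0026) and Ccna2, cyclin A2 (-1.52 ± 0.11 SE, adjusted p = 5.3e-05), fell as well. Of 8 genes for copying chromatin 7 passed as lower, among them the subunits Chaf1a (-2.17 ± 0.16 SE, adjusted p = 6.6e-05) and Chaf1b (-2.06 ± 0.21 SE, adjusted p = 0.00031) of the factor that places histones on new DNA.

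In the lists that follow some genes passed as higher on day 3, as 12.8% of expressed transcripts did. Of 12 other genes of nucleotide supply in S phase 8 passed as lower on day 3 and 1, Rrm2b, as higher. Rrm2b encodes the small subunit of ribonucleotide reductase that serves cells outside S phase, and was at 52.4, 58.9, 79.6 and 85.2 in siCtrl cells and at 40.3, 64.6, 63.2 and 67.2 in siKlf5 cells on days 0 to 3. It was named after its values were seen, and moved opposite to Rrm2. Shmt1 (-1.64 ± 0.27 SE, adjusted p = 0.0029), Cad (-1.61 ± 0.16 SE, adjusted p = 0.00032) and Dck (-1.42 ± 0.19 SE, adjusted p = 0.0013), of serine, pyrimidine and salvage metabolism, fell. Of 12 E2F, DP and Rb factors, a list that does not hold E2f1, 5 passed as lower and 1 as higher. The one that rose was Rb1, the retinoblastoma protein (1.61 ± 0.19 SE, adjusted p = 0.00067), at 61.8, 154, 244 and 211 in siCtrl cells and at 72.6, 166, 167 and 199.6 in siKlf5 cells. Its relative Rbl1 (-1.28 ± 0.21 SE, adjusted p = 0.0031) and the repressive factors E2f7 (-1.36 ± 0.20 SE, adjusted p = 0.0021) and E2f8 (-0.90 ± 0.19 SE, adjusted p = 0.0094) fell. Of 5 genes of cell cycle exit, Cdkn1a, the Cdk inhibitor p21, rose (1.55 ± 0.17 SE, adjusted p = 0.00051), as did Ccnd3 (0.50 ± 0.12 SE, adjusted p = 0.016), and Ccnd1, cyclin D1, fell (-2.42 ± 0.14 SE, adjusted p = 2.0e-05). Cdkn1c was at 5.89, 22.2, 7.53 and 4.11 in siCtrl cells and at 2.36, 15.4, 5.15 and 14.1 in siKlf5 cells and did not pass. Of 7 markers of undifferentiated or reserve myoblasts 3 passed as lower on day 3, among them Id3 (-1.35 ± 0.27 SE, adjusted p = 0.0071), an inhibitor of MyoD family proteins, and 1, Spry1, as higher. By limma none of the genes in these lists passed for siKlf5 against siCtrl, and of the 30 other replication proteins 6 had an unadjusted p under 0.05 as higher and 1 as lower, against 3.93% and 5.67% of expressed transcripts. Of the 5 genes of cell cycle exit 3 had one as lower in siKlf5 cells and 1 as higher, and of the 7 reserve myoblast markers 2 as lower.

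Mitosis genes, which act after replication, were lower as well. All 20 passed as lower on day 3, with a median fitted change of -1.79 where the 42 replication genes had -1.49. Plk1, a kinase of mitotic entry, was at 449, 113, 185 and 78.6 in siCtrl cells and at 466, 232, 212 and 119.8 in siKlf5 cells on days 0 to 3, and Aurka at 395, 148, 168 and 71.6 in siCtrl cells and at 454, 169, 138 and 129 in siKlf5 cells. Mki67, a mark of cycling cells, was at 197, 96.8, 89.5 and 38.5 in siCtrl cells and at 250.1, 121, 63.5 and 78.9 in siKlf5 cells, and Tpx2, a spindle factor, at 459, 182, 196 and 102 in siCtrl cells and at 446, 212, 199 and 138 in siKlf5 cells. In each of the 4 the siKlf5 library of day 3 was above the siCtrl library. The median log2 ratio of siKlf5 to siCtrl over the 20 was 0.11, 0.45, 0.02 and 0.46 on days 0 to 3, with 20 of 20 above 0 on days 1 and 3. For replication genes it was 0.18 on day 3, with 28 of 42 above 0. By limma none of the 20 passed for siKlf5 against siCtrl, and 7 had an unadjusted p under 0.05, each as higher. The difference between the lists was not tested.

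**Figure D5:**
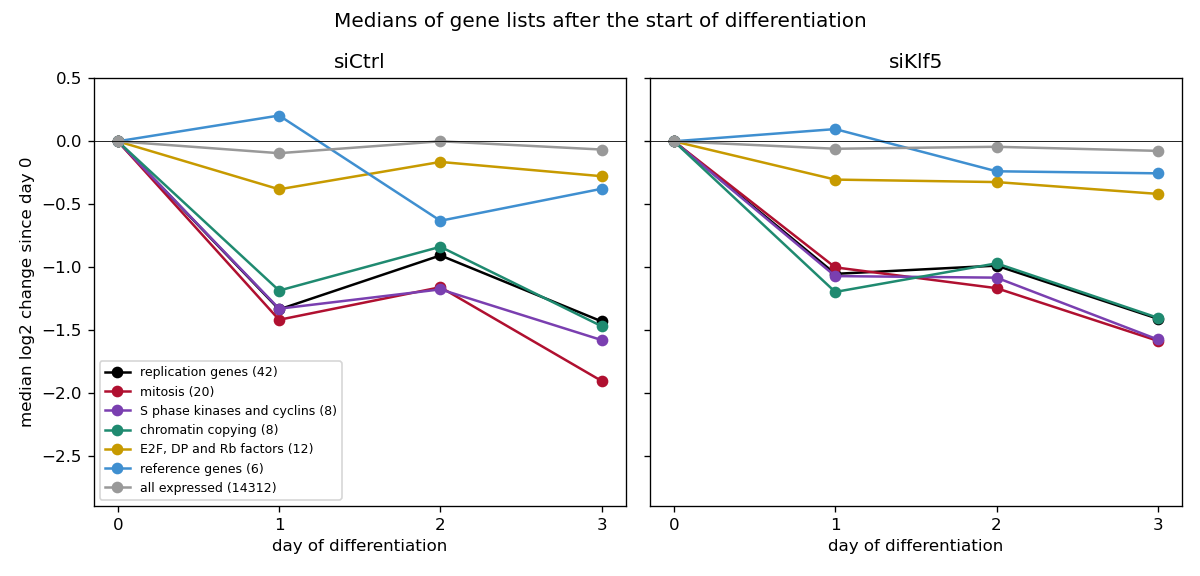
Median log2 change since day 0 of 7 gene lists, with the number of genes in each, against day of differentiation, in siCtrl (left) and siKlf5 (right). Replication, mitosis, S phase kinase and chromatin copying lists lie below -0.8 on each later day, all expressed transcripts lie near 0, and the reference genes are at -0.63 in the siCtrl library of day 2.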

How the data were processed

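Poly(A) RNA-seq of C2C12 cells (8 libraries, siCtrl and siKlf5 on days 0, 1, 2 and 3, grouped by their titles) was analysed. The other 6 of the 14 samples, ChIP-seq and input, were not analysed here. Per the labels, the authors aligned reads to mm9 with STAR and counted them with HOMER. Per the file headers, the deposited FPKM values are per length of the exons of 1 RefSeq transcript per gene, count both strands, keep at most 3 reads per position and are scaled to a total of 1e+07. 8 further columns of log2 values and normalization by DESeq2, named in the labels, were not used here.

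Transcripts with a mean of at least 1 over the 8 libraries (14312 of 24016) were tested by limma 3.58.1 in R 4.3.3 (trend, Benjamini-Hochberg adjustment) on log2(FPKM + 0.1), so fold changes of low genes are understated. The terms were siRNA and day, with 3 residual degrees of freedom. The residual is the siRNA by day interaction, no condition has a replicate, and libraries of 1 siRNA on different days are not replicates. A slope of the siKlf5 effect with day left 2 residual degrees of freedom. The fits were tested on simulated data, but the outcome is not given here and no conclusion rests on it. Reads were recovered from the value of 1 read per transcript (100% of checked values whole within 0.1). A count of 6 reads was more common than one of 5 in every library (419 and 68 transcripts in siCtrl cells on day 0), so reads were not taken as independent. Counting intervals (95%, Clopper-Pearson) were computed after dividing reads by 6, a choice made to widen them, and reflect counting error alone.

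The members and all gene lists, motifs and tests were chosen with earlier results of these data known. Contrasts between consecutive days and the restriction to members with no opposite-strand exon overlap (GENCODE vM1) were added after the values were seen. That overlap was read from GENCODE exons, and the RefSeq transcripts counted need not overlap, as those of Rfc5 and Wsb2 did not. Values in all 8 libraries are given for Mcm2 to Mcm7, Cdc6, Cdt1, Orc1, Gmnn, Cdc45, Pcna, Pole, Rrm1, Rrm2, Tyms, Tk1 and E2f1, and for the 3 members with the highest and lowest day 3 ratio and with the largest and smallest siCtrl fall. Up to 4 genes are named per other list, those with the largest siCtrl change by day 3. 1 gene that this rule names is not reported here. Klf5, the opposite-strand neighbours, and Actb, Rrm2b and Myog stand outside that rule and were named after their values were seen. Promoter letters were searched by exact match in RefSeq GRCm38.p6 windows. Alternatives were the scaling, the pseudocount (0.01 and 1), the filter (none and 5), limma without trend, no day term, leaving out days, a 2-fold cutoff for ratios and a 3-fold fall for timing.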

Additional observations from a re-analysis of the deposited data

How the results depend on the processing

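Of the members' single-gene values recomputed under alternatives, 504 of 504 moved by less than 50% of the width of their counting intervals. On day 3, 4 ratios with intervals that include 0 changed sign, those of Pola2, Prim1, Prim2 and Tyms, which upper-quartile scaling moved above 0. That scaling thus put 32 members above 0 on day 3 in place of 28. Ratios of day 2 changed sign as well and are not among these 4. Median-ratio and upper-quartile scaling both put 35 members above 0 on day 2 in place of 32. Of 42 members, those lower on day 1 (40) numbered 14 with no filter on low values and 17 without limma's trend, and 26 to 34 when 1 of the later days was left out. Those lower on day 2 (39) numbered 16, 22 and 28 to 35 under the same alternatives, and those lower on day 3 (41) numbered 31, 37 and 40. Among all transcripts tested, the main fit had 1421, 1662 and 2516 of 14312 lower on days 1, 2 and 3. These became 371, 551 and 1256 of 24016 with no filter, and 308, 512 and 1366 of 14312 without trend. With 1 of the later days left out they were 552 to 695, 957 to 1539 and 1828 to 2412 of 14312. No member passed for siKlf5 in any of these fits. Of all transcripts tested, 8 passed as lower and 1 as higher in the main fit. With no filter, without trend or with any day left out, 0 passed in either direction. Those alternatives therefore say nothing about the members in particular. The 16 members with an unadjusted p under 0.05 as higher in siKlf5 cells became 10 without trend and 0 without day as a term. They became 8 to 11 when a day was left out. The share over all expressed transcripts was taken for the main fit alone (3.93%), so these counts cannot be set against it.

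With a 3-fold fall in place of 50%, 10 members in siCtrl cells and 3 in siKlf5 cells had reached it on day 1, and 22 and 24 on no day. Of all expressed transcripts 10.2% and 8.6% had reached it on day 1, and 84.2% and 84.8% on no day. Under median-ratio and upper-quartile scaling 7 and 8 members reached 50% on no day in siKlf5 cells, in place of 2. No share of expressed transcripts was taken for this count. Among the 30 members with no opposite-strand overlap in GENCODE vM1, 16 reached 50% on day 1 in siKlf5 cells. Of the same 30, 2 in place of 4 were higher by over 1.5-fold on day 3. At 2-fold, 4 members were higher on day 1 and 1 on day 3, and 0 were lower on day 3, where 9.08%, 6.24% and 7.47% of expressed transcripts passed. Under median-ratio and upper-quartile scaling 1 member was lower by 1.5-fold on day 1 (12.4% and 11.8% of expressed transcripts) and 1 higher on day 2 (8.39% and 8.4%), and upper-quartile scaling gave 7 higher on day 3 (11.5%). The cause of these shifts was not tested. Libraries of the same day are paired through the day term, and the count without that term is the one of 0 above. With 1 library per condition, differences on single days have counting intervals only.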
